A study of Mus musculus with 24 samples.

Results

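The comparison was between transgenic (TG) and wild-type (WT) calf muscle at rest, in mice that had not been exercised. Its members were the 12 unexercised arrays of the 24 in the series, chosen by genotype and treatment as the labels give them. They were 6 arrays from α7Tg mice, which carry a transgene for the α7BX2 form of the α7 integrin chain, and 6 arrays from WT mice. For all 12 the labels give female mice 5 weeks old, fed standard chow and assigned at random to stay sedentary. RNA came from the gastrocnemius-soleus complex, and each array held the RNA of 1 labelled replicate. The other 12 arrays came from TG mice (6) and WT mice (6) of the same age and sex, killed 3 h after running downhill for 40 min at 17 m/min on a slope of 20 degrees. They were used here to set values beside those at rest. The resting group means did not use them, but normalization, the probe filter, the choice of probe and the estimate of spread did. The labels do not name the promoter that drives the transgene, its place of insertion or the background strain.

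The α7 integrin chain pairs with the β1 chain to form the main laminin receptor of adult skeletal muscle fibres. It lies along the fibre membrane at costameres and is concentrated at neuromuscular and myotendinous junctions, where it links laminin outside the fibre to actin inside it, in parallel with the dystrophin-glycoprotein complex. Integrins also pass signals to focal adhesion kinases and, through them, to growth pathways. The comparison at rest shows how the muscle transcriptome of the transgenic line differed before any exercise.

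Signals are given as log2 values after background correction and quantile normalization, and differences are TG minus WT on that scale. Median raw intensity ran from 107.3 to 137.9 over the 12 arrays, and 40.8% to 46.2% of probes were detected. After filtering, 14984 features were tested, 11574 with a gene symbol and 3410 probes without one, with 1 probe kept per symbol. The correlation between pairs of the 12 arrays ran from 0.911 to 0.991. Muscle identity genes were bright on every array, with a list mean of 14.34 ± 0.14 in TG and 14.31 ± 0.13 in WT muscle (log2, SD, n = 6 each). The mean of the lymphocyte marker list fell into separate ranges: it was 8.09 to 9.28 on TG arrays 4 and 7 and WT arrays 6, 7 and 10, and 5.47 to 5.80 on the other 7 arrays. Transgenic array 8 lay nearest to the WT arrays, or among them, for several of the genes below.

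Itga7, which encodes the α7 chain, had a lowest, median and highest signal of 8.11, 9.17 and 9.74 in TG muscle, against 8.23, 9.02 and 9.37 in WT muscle. The groups overlapped over nearly their whole range. The difference was 0.22 (SE 0.31, 95% confidence interval -0.41 to 0.86, limma adjusted p = 1.00). A second Itga7 probe differed by 0.33 (SE 0.34). Itgb1, the β1 partner chain, read 7.29, 7.70 and 8.18 in TG muscle against 7.37, 7.65 and 8.27 in WT muscle. Its difference was 0.047 (SE 0.20, limma adjusted p = 1.00), and its second probe gave -0.075 (SE 0.15). The probe sequences were not at hand, so whether the Itga7 probes read the transgene's transcript was not tested, and Itga7 is no check of the genotypes.

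Of the 14984 features, 11 passed an adjusted p under 0.05, 0.0734% of those tested. There were 6 higher (0.04%) and 5 lower (0.0334%) in TG muscle. Only 7 of the 11 have a gene symbol, and 6 of these 7 lie on chromosome 7: Ctu1, Hps5, Kcna7, Nosip, Bcat2 and Wdr93. The seventh, Zfp869, lies on chromosome 8, and the other 4 are probes without a symbol. In 9 of the 11 the TG and WT arrays did not overlap, as was so for 38 features in all, 0.254% of those tested. At an unadjusted p under 0.05 there were 448 features, 2.99% of those tested, 278 higher (1.86%) and 170 lower (1.13%). The median difference over all features was 0.0083, with 52.2% above 0.

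**Figure D1:**
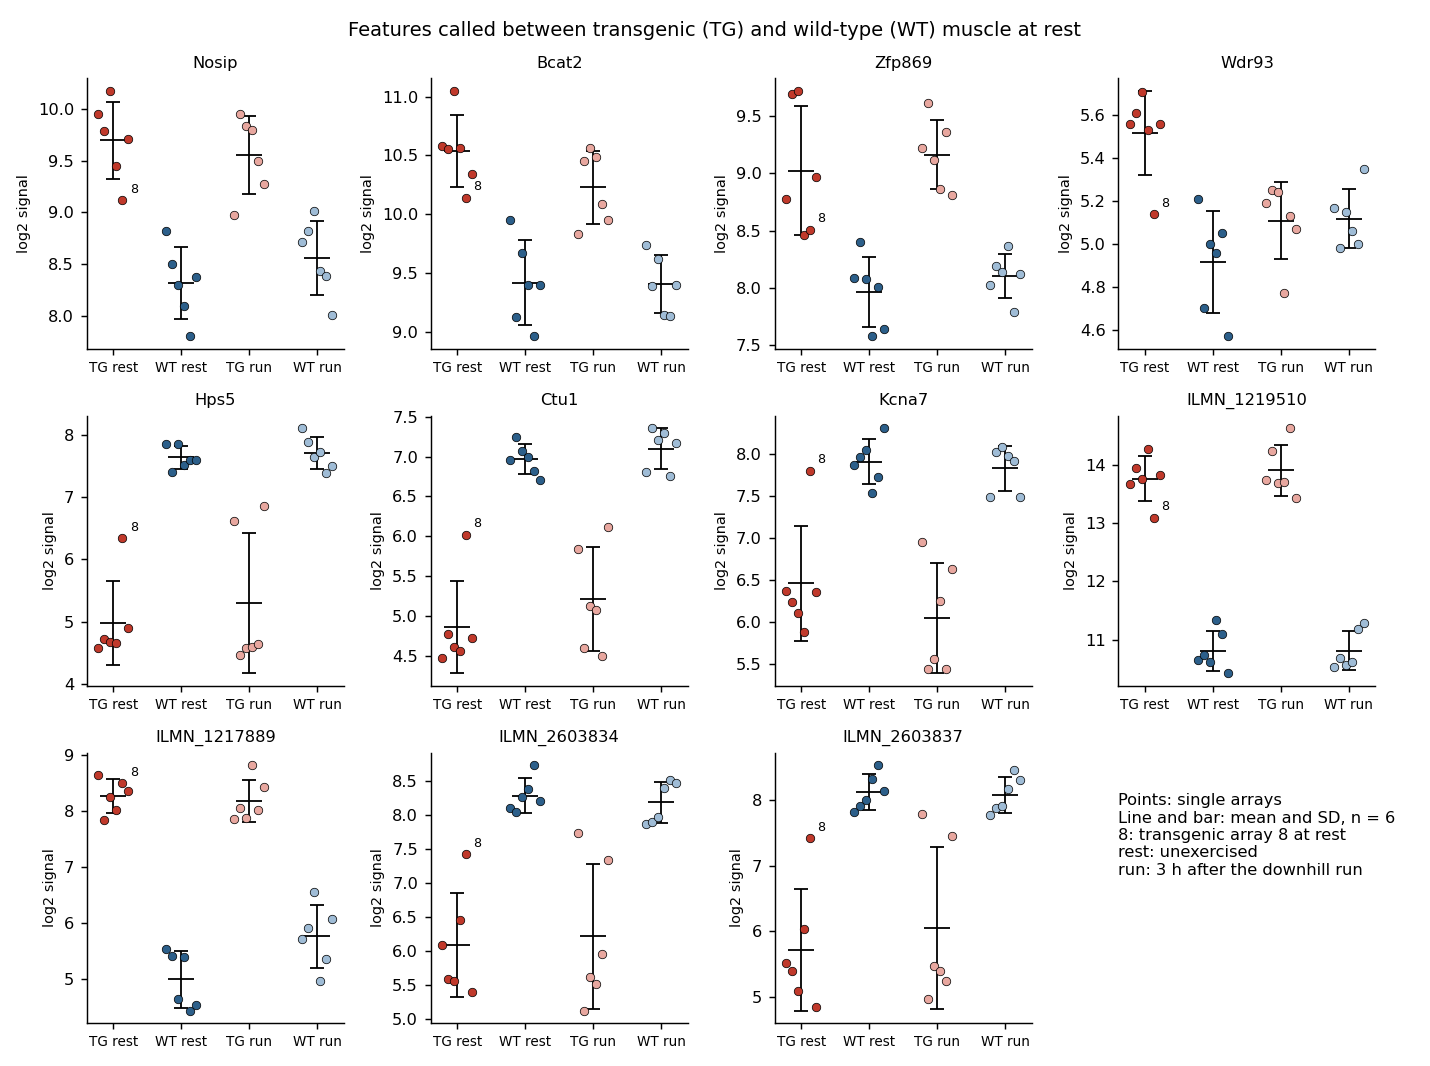
Log2 signal of the 11 called features on each array, with TG left of WT at rest and after the run; points are arrays, lines and bars the mean and SD (n = 6 per group), and the number marks TG array 8 at rest. Hps5, Ctu1 and Kcna7 are lower in TG muscle in both states, with TG array 8 nearest to the WT arrays at rest, and the exercised Wdr93 groups lie together at means of 5.11 and 5.12.

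Ctu1 encodes a subunit of the cytosolic enzyme that adds sulphur to the wobble uridine of some tRNAs. Its signal was 4.47, 4.66 and 6.02 (lowest, median, highest) in TG muscle, against 6.71, 6.97 and 7.24 in WT muscle. It fell by 2.11 on the log2 scale in TG muscle (SE 0.26, 4.31-fold lower, limma adjusted p = 0.000130). Its probe was detected on 1 of 6 TG arrays and on 6 of 6 WT arrays, so most TG signals were at background and the fold rests on them. The 1 TG array with detected signal was array 8, at 6.02. Without it Ctu1 fell by 2.34 on the log2 scale.

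Hps5 encodes a subunit of a complex that sorts cargo to lysosome-related organelles such as melanosomes. It read 4.57, 4.70 and 6.34 in TG muscle, against 7.40, 7.59 and 7.85 in WT muscle. It fell by 2.66 on the log2 scale (SE 0.37, 6.31-fold lower, limma adjusted p = 0.000895). As with Ctu1, the probe was detected on 1 of 6 TG arrays and on 6 of 6 WT arrays, and the highest TG value was that of array 8. A second Hps5 probe, detected on all 24 arrays, lay on the other side: it averaged 6.74 ± 0.29 in TG and 5.85 ± 0.19 in WT muscle (SD, n = 6 each), a difference of 0.89 (SE 0.17, adjusted p = 0.0858 over all probes). A direction for the whole gene therefore cannot be given from these probes.

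Kcna7, a voltage-gated potassium channel subunit, read 5.88, 6.29 and 7.80 in TG muscle, against 7.53, 7.92 and 8.31 in WT muscle. It fell by 1.46 on the log2 scale (SE 0.28, 2.75-fold lower, limma adjusted p = 0.0461). Array 8 again gave the highest TG value, and it was the only TG array inside the WT range. Without it Kcna7 fell by 1.73 on the log2 scale.

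Nosip, a ubiquitin ligase that binds nitric oxide synthases, was higher in TG muscle. It read 9.12, 9.75 and 10.18 in TG muscle against 7.80, 8.34 and 8.82 in WT muscle, with no overlap. It rose by 1.39 (SE 0.20, 2.61-fold, limma adjusted p = 0.00197). All 3 Nosip probes were detected on all 24 arrays and were higher in TG muscle, by 0.73, 1.27 and 1.39.

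Bcat2 encodes the mitochondrial aminotransferase that starts the breakdown of branched-chain amino acids, a step that is active in muscle. It read 10.14, 10.56 and 11.05 in TG muscle against 8.96, 9.40 and 9.95 in WT muscle, again with no overlap. It rose by 1.12 (SE 0.17, 2.18-fold, limma adjusted p = 0.00381). Its second probe was not detected on any array.

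Wdr93, a WD-repeat protein, was near background, with 5 of 6 TG and 4 of 6 WT arrays detected. It read 5.14, 5.56 and 5.71 in TG muscle against 4.57, 4.98 and 5.21 in WT muscle, and TG array 8 lay inside the WT range. It rose by 0.60 (SE 0.12, limma adjusted p = 0.0461). Zfp869, a zinc finger protein, read 8.46, 8.88 and 9.72 in TG muscle against 7.58, 8.04 and 8.40 in WT muscle. It rose by 1.06 (SE 0.21, limma adjusted p = 0.0467). Its other 2 probes detected on all 24 arrays differed by 0.24 and 0.20, so the called rise was that of 1 of its 3 detected probes.

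Of the probes without a symbol, ILMN_1219510 had the smallest p of all features. It read 13.09, 13.79 and 14.27 in TG muscle against 10.42, 10.70 and 11.33 in WT muscle, and rose by 2.95 (SE 0.21, 7.72-fold, limma adjusted p = 1.7e-08). ILMN_1217889 read 7.83, 8.30 and 8.64 in TG muscle against 4.43, 5.02 and 5.53 in WT muscle, and rose by 3.28 (SE 0.25, limma adjusted p = 2.1e-08). It was detected on 6 of 6 TG arrays and on 3 of 6 WT arrays. ILMN_2603834 differed by -2.20 (SE 0.37, limma adjusted p = 0.0115) and ILMN_2603837 by -2.39 (SE 0.43, limma adjusted p = 0.0229). The highest TG values of these last probes, 7.43 and 7.42, were those of array 8. No sequence or gene for these 4 probes was in the tables used here.

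The 250 bases before the annotated start are shown for the called genes of chromosome 7 with the smallest adjusted p. These genes lie in the stretch of that chromosome, described below, where genes with an unadjusted p under 0.05 were densest, and they differed in both directions. RefSeq (GRCm38.p6) gave a promoter for all 7 called genes with a symbol. Capitals mark the E-box CACGTG, which reads the same on both strands and is the site of the clock factors described below. It was present in the same window of 6.02% of 32851 annotated promoters. The windows are chr7:43671781-43672030 on the plus strand for Ctu1, chr7:46795882-46796131 on the minus strand for Hps5 and chr7:45062179-45062428 on the plus strand for Nosip, each written 5′ to 3′ along the gene's strand.
Ctu1: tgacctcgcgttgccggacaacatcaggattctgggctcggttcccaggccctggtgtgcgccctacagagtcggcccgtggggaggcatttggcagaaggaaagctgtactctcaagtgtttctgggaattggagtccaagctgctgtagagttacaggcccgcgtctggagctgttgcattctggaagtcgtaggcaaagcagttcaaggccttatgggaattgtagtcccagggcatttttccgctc
Hps5: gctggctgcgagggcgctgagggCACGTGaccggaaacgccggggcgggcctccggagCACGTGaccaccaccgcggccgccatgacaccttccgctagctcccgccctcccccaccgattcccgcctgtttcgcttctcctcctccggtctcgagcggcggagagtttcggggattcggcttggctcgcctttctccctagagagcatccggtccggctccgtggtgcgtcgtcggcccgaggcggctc
Nosip: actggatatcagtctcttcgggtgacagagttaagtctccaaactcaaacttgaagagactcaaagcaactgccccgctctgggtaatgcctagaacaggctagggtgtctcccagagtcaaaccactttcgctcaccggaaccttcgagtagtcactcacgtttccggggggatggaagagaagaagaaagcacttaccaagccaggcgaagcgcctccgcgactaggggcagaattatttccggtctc
The Hps5 window holds 2 such motifs, and these letters are not in the Ctu1 or Nosip windows.

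The exercised arrays share no sample with those at rest, and for nearly all of the called features they differed in the same direction. Of the 11, 10 differed in the same direction with an unadjusted p under 0.05, against 3.11% of all features at that p after the run. The adjusted p was under 0.05 in 7, against 0.0868% of all features. After the run Ctu1 averaged 5.21 ± 0.65 in TG and 7.10 ± 0.26 in WT muscle (SD, n = 6 each), a difference of -1.89 (SE 0.26). Hps5 differed by -2.41 (SE 0.37), Kcna7 by -1.78 (SE 0.28), Nosip by 1.00 (SE 0.20), Bcat2 by 0.83 (SE 0.17) and Zfp869 by 1.05 (SE 0.21). The probes ILMN_1219510 and ILMN_1217889 differed by 3.09 (SE 0.21) and 2.42 (SE 0.25). The exercised TG arrays 1 and 11 were the highest TG arrays for Ctu1, Hps5, Kcna7 and ILMN_2603834 and lay below the WT arrays. For Hps5 they read 6.62 and 6.86, against 4.46 to 4.64 on the other 4 TG arrays and 7.39 to 8.11 on the WT arrays. The same TG arrays were highest for ILMN_2603837, but there array 1 lay inside the WT range, at 7.79 against a lowest WT value of 7.77.

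Wdr93 was the exception. It averaged 5.11 ± 0.18 in TG and 5.12 ± 0.14 in WT muscle after the run, a difference of -0.012 (SE 0.12). The test of the difference between both states gave -0.62 (SE 0.17) with an unadjusted p of 0.0011 and a limma adjusted p of 0.926. No feature (0 of 14984) passed the adjusted test of genotype by exercise, while 352 had an unadjusted p under 0.05, 2.35% of those tested. Cbwd1, a gene of chromosome 19 named here after its values were seen, had a difference of 3.22 at rest (SE 0.64, limma adjusted p = 0.0583) and of 1.28 after the run (limma adjusted p = 0.998). All 13 features called after the run had the same direction and an unadjusted p under 0.05 at rest. Among the 448 features with an unadjusted p under 0.05 at rest, 91 (20.3%) also reached it after the run, 87 of them in the same direction, 0.581% of all features.

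**Figure D2:**
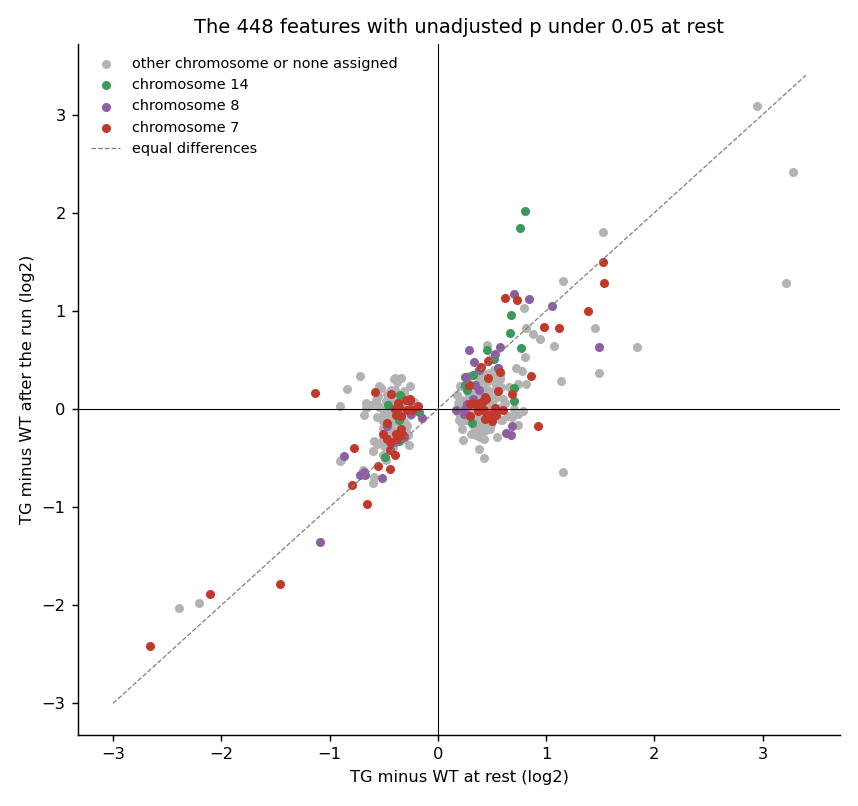
TG minus WT difference after the run (vertical, log2) against that at rest (horizontal, log2) for the 448 features with an unadjusted p under 0.05 at rest, coloured by chromosome, with the dashed line marking equal differences. ILMN_1219510 (2.95 at rest, 3.09 after the run) and Hps5 (-2.66 and -2.41) lie near the line, ILMN_1217889 (3.28 and 2.42) and Cbwd1 (3.22 and 1.28) lie below it, and most of the features under 0.6 in size spread around 0 on the vertical axis.

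The calls rest unevenly on single arrays. Ctu1, Hps5, Nosip, Bcat2, ILMN_1219510 and ILMN_1217889 stayed called when each of the 12 resting arrays was left out in turn, with a largest adjusted p of 0.0192. The count of calls was 7 without TG array 3, 7 without WT array 6, 7 without WT array 7 and 6 without WT array 10. ILMN_2603834 was not called without WT array 10, where its adjusted p lay just above the threshold. ILMN_2603837 was not called without TG array 3, 4, 5 or 11 or WT array 6, 7, 10 or 11. Kcna7 stayed called only without TG array 8, Wdr93 only without TG array 8 or WT array 1, and Zfp869 only without TG array 7, TG array 8 or WT array 3, among these settings. Their largest adjusted p was 0.146, 0.146 and 0.175. In a fit of the resting arrays alone 7 features were called. Not called there were Bcat2 (limma adjusted p = 0.0678), Kcna7 (0.162), Wdr93 (0.391) and Zfp869 (0.417).

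With the replicate number as a fixed block only 2 features were called, ILMN_1219510 (3.05, adjusted p = 0.00015) and ILMN_1217889 (3.18, adjusted p = 0.00054). The blocked differences of the others kept their signs, with an adjusted p over the threshold. They were -2.17 for Ctu1 (limma adjusted p = 0.210), -2.44 for Hps5 (0.253), 1.22 for Nosip (0.210), 1.03 for Bcat2 (0.593), -1.45 for Kcna7 (0.819), 0.95 for Zfp869 (0.819) and 0.71 for Wdr93 (0.593). ILMN_2603834 gave -1.89 (0.819) and ILMN_2603837 gave -2.08 (1.00). With the number as a random block, at a correlation of 0.114, 13 features were called, among them all 11. After the run the fixed block left 2 of the 13 calls, ILMN_1219510 and ILMN_1217889. Without the arrays high in lymphocyte markers, a setting chosen after seeing the data, 3 features were called: Hps5, ILMN_1217889 and ILMN_1219510. That setting dropped 11 of the 24 arrays, exercised ones among them, and so had less power than the main fit. In that setting Ctu1 differed by -2.02 (limma adjusted p = 0.0928), Nosip by 1.17 (0.331) and Bcat2 by 1.04 (0.836).

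Genes that differed at rest were not spread evenly over the chromosomes. Chromosome 7 held 66 of 891 tested genes with an unadjusted p under 0.05 (7.41%) and chromosome 8 held 35 of 611 (5.73%), against 252 of 10055 (2.51%) on all other chromosomes together. The share was 4.91% on chromosome 14 (20 of 407) and 4.80% on chromosome 19. On chromosome 7, 21 of the 66 also had an unadjusted p under 0.05 in the same direction after the run, on chromosome 8, 18 of 35, and on chromosome 14, 12 of 20. On chromosome 19 it was 2 of 20. Neighbouring genes share a chromosome segment and are not independent, so these shares are descriptions with no test.

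In the order of tested genes along chromosome 7, positions 301 to 350 held 10 of 50 with an unadjusted p under 0.05 and positions 351 to 400 held 15 of 50. The other windows of 50 held at most 5. Ctu1 lay at position 309, Nosip at 344, Kcna7 at 358, Bcat2 at 367 and Hps5 at 389. The genes between them named here were chosen after their values were seen. Ush1c, a scaffold protein, lay at 383, was detected on 6 of 6 TG and 3 of 6 WT arrays, had no overlap between the genotypes and averaged 6.63 ± 0.65 in TG and 5.09 ± 0.37 in WT muscle (SD, n = 6 each), a difference of 1.54 (SE 0.31, limma adjusted p = 0.0620). Its next neighbour Myod1, the transcription factor that sets the myogenic programme, lay at 384. Myod1 read 5.15, 5.66 and 6.29 in TG muscle against 5.51, 6.47 and 7.24 in WT muscle, a difference of -0.79 (SE 0.30, limma adjusted p = 1.00), and -0.77 after the run. Myh14, a non-muscle myosin heavy chain, differed by -0.44 at rest (SE 0.11, limma adjusted p = 0.223) and by -0.62 after the run, where it was called (adjusted p = 0.428 with the replicate block). Its probe was detected on 0 of 6 TG and 3 of 6 WT resting arrays, so the TG signal there was at background. Vrk3, a kinase next to Myh14, differed by 0.46 (SE 0.15), and both directions occurred along the run of genes.

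**Figure D3:**
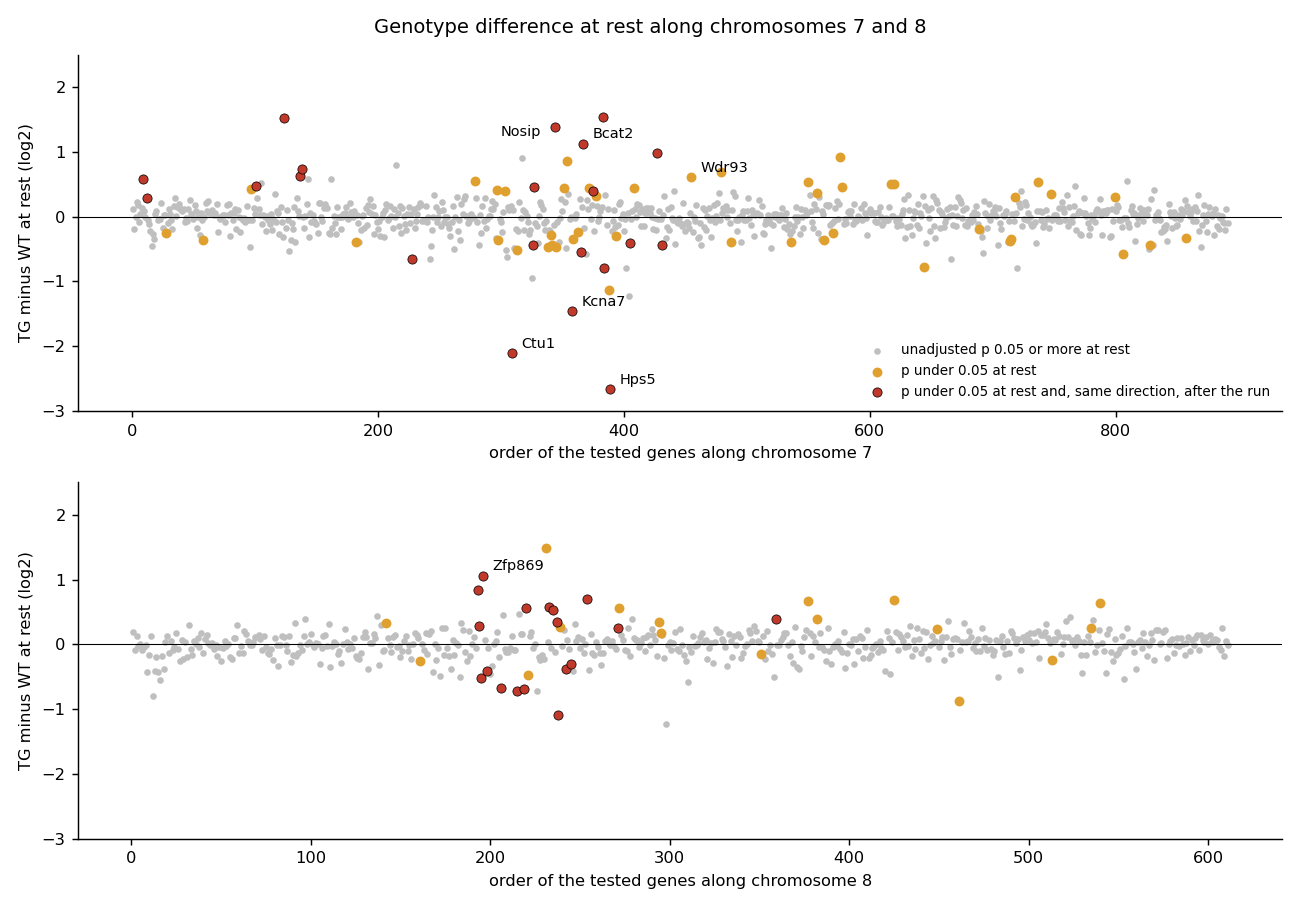
TG minus WT difference at rest (log2, vertical) against the order of tested genes along chromosome 7 (891 genes, upper) and chromosome 8 (611 genes, lower); gold points have an unadjusted p under 0.05 at rest, red points also after the run in the same direction, and the called genes are named. The red points are densest at positions 301 to 400 on chromosome 7 and 193 to 254 on chromosome 8, above and below 0.

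On chromosome 8, positions 201 to 250 held 13 of 50 genes with an unadjusted p under 0.05, and positions 151 to 200 held 6, while the other windows held at most 5. Zfp869 lay at position 196 among other zinc finger genes, and its neighbours differed in opposite directions. Zfp930 (position 193) differed by 0.84 (SE 0.24), Zfp868 (195) by -0.51 (SE 0.18) and Zfp866 (198) by -0.42 (SE 0.13). Mef2b, a MADS-box transcription factor (position 206), differed by -0.67 (SE 0.16, limma adjusted p = 0.220) and by -0.67 after the run. Comp, the cartilage oligomeric matrix protein of tendon (215), read 8.94, 9.26 and 9.97 in TG muscle against 9.60, 10.03 and 10.59 in WT muscle, a difference of -0.71 (SE 0.19, limma adjusted p = 0.415) at rest and of -0.67 after the run. Use1, a SNARE protein of Golgi-to-endoplasmic reticulum transport (237), differed by 0.34 (SE 0.088, limma adjusted p = 0.367) and its neighbour Ocel1 (238) by -1.09 (SE 0.29, limma adjusted p = 0.369). Use1 was called after the run, at 0.48 (adjusted p = 0.983 with the replicate block).

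The chromosome 14 genes with an unadjusted p under 0.05 in both states lay between positions 149 and 260. Ang, the ribonuclease angiogenin (position 171), averaged 7.39 ± 0.39 in TG and 6.63 ± 0.72 in WT muscle at rest, a difference of 0.76 (SE 0.27), and differed by 1.85 after the run, where it was called (adjusted p = 0.110 with the replicate block). Its neighbour Rnase4 (172), another ribonuclease of the same family, differed by -0.49 (SE 0.22) at rest and -0.49 after the run. Supt16, a subunit of a histone chaperone (181), differed by 0.80 (SE 0.37) at rest and by 2.02 after the run, where it too was called (adjusted p = 0.191 with the replicate block). Psmb5, a catalytic proteasome subunit (194), differed by 0.67 (SE 0.25), and Mipep, a mitochondrial peptidase (260), by 0.77 (SE 0.22, limma adjusted p = 0.494). None of these 5 was called at rest.

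The 12 resting arrays were also placed on a scale set by the exercised arrays, with the exercised WT mean at 0 and the exercised TG mean at 1. On chromosome 7 the scale used the 25 genes with an unadjusted p under 0.01 after the run, of which 23 had the same direction at rest. The median position was 0.589 to 1.32 on the 6 TG arrays and -0.013 to 0.105 on the 6 WT arrays, with no overlap. On chromosome 8 the scale used 22 genes, 21 with the same direction at rest. The median position was 0.399 to 1.11 on the TG arrays and -0.110 to 0.348 on the WT arrays. Transgenic array 8, at 0.609 and 0.488, lay above every WT array on both chromosomes.

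Gene groups were described by lists over all chromosomes, so that some members, such as Myod1 and Comp, also lie in the segments above. None of the 28 lists held a called member in the main fit (0 called), so their counts and medians stand beside the median of 0.0083 and the 52.2% above 0 over all features. Counts of members at an unadjusted p under 0.05 stand beside the 2.99% of all features at that p. Scaling arrays to 1 median in place of quantiles put the median of all features at -0.0855, beside which the list medians under that setting are to be read.

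The lists closest to the transgene's protein differed little. Of 21 measured integrin chains 12 were higher in TG muscle, with a median difference of 0.041 that turned to -0.053 under median scaling and to -0.00095 with the replicate block. Itgb6, a β chain best known from epithelia, was the 1 integrin chain with an unadjusted p under 0.05, at 9.88, 10.55 and 11.08 in TG muscle against 8.90, 9.96 and 10.54 in WT muscle (difference 0.69, SE 0.30, limma adjusted p = 1.00). Laminins and other basement membrane genes were lower in 14 of 20, with a median of -0.065 and 0 of 20 at an unadjusted p under 0.05. The basement membrane glycoprotein Sparc differed by -0.28 (SE 0.14). Dystrophin-glycoprotein complex genes were higher in 13 of 19, with a median of 0.077 that turned to -0.026 under median scaling and to -0.011 with the replicate block, and 0 of 19 had an unadjusted p under 0.05. Focal adhesion and costamere genes were higher in 15 of 28, with a median of 0.0091 that turned to -0.092 under median scaling and to -0.064 with the replicate block. Tln2, a talin of muscle that activates integrins, differed by 0.53 (SE 0.28, unadjusted p = 0.0705).

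Growth signalling genes were higher in 13 of 23, with a median of 0.045 that turned to -0.074 under median scaling and to -0.014 with the replicate block. Igf1, the growth factor of muscle repair, was the 1 member with an unadjusted p under 0.05: it read 9.46, 9.66 and 9.91 in TG muscle against 9.90, 10.05 and 10.29 in WT muscle (difference -0.41, SE 0.14, unadjusted p = 0.00795, limma adjusted p = 1.00). The groups met at 9.91 and 9.90. Neuromuscular junction genes were higher in 11 of 14, with a median of 0.11 (-0.0032 with the replicate block), and Ache, the acetylcholinesterase of the junction, differed by 0.60 (SE 0.24, limma adjusted p = 1.00). Satellite cell and myogenic genes were higher in 8 of 12, with a median of 0.096 that turned to -0.0026 under median scaling and to -0.052 with the replicate block. Myod1 was the 1 member with an unadjusted p under 0.05 in the main fit. With every probe as its own feature, a probe of the member Mef2c that the main fit did not use was called.

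**Figure D4:**
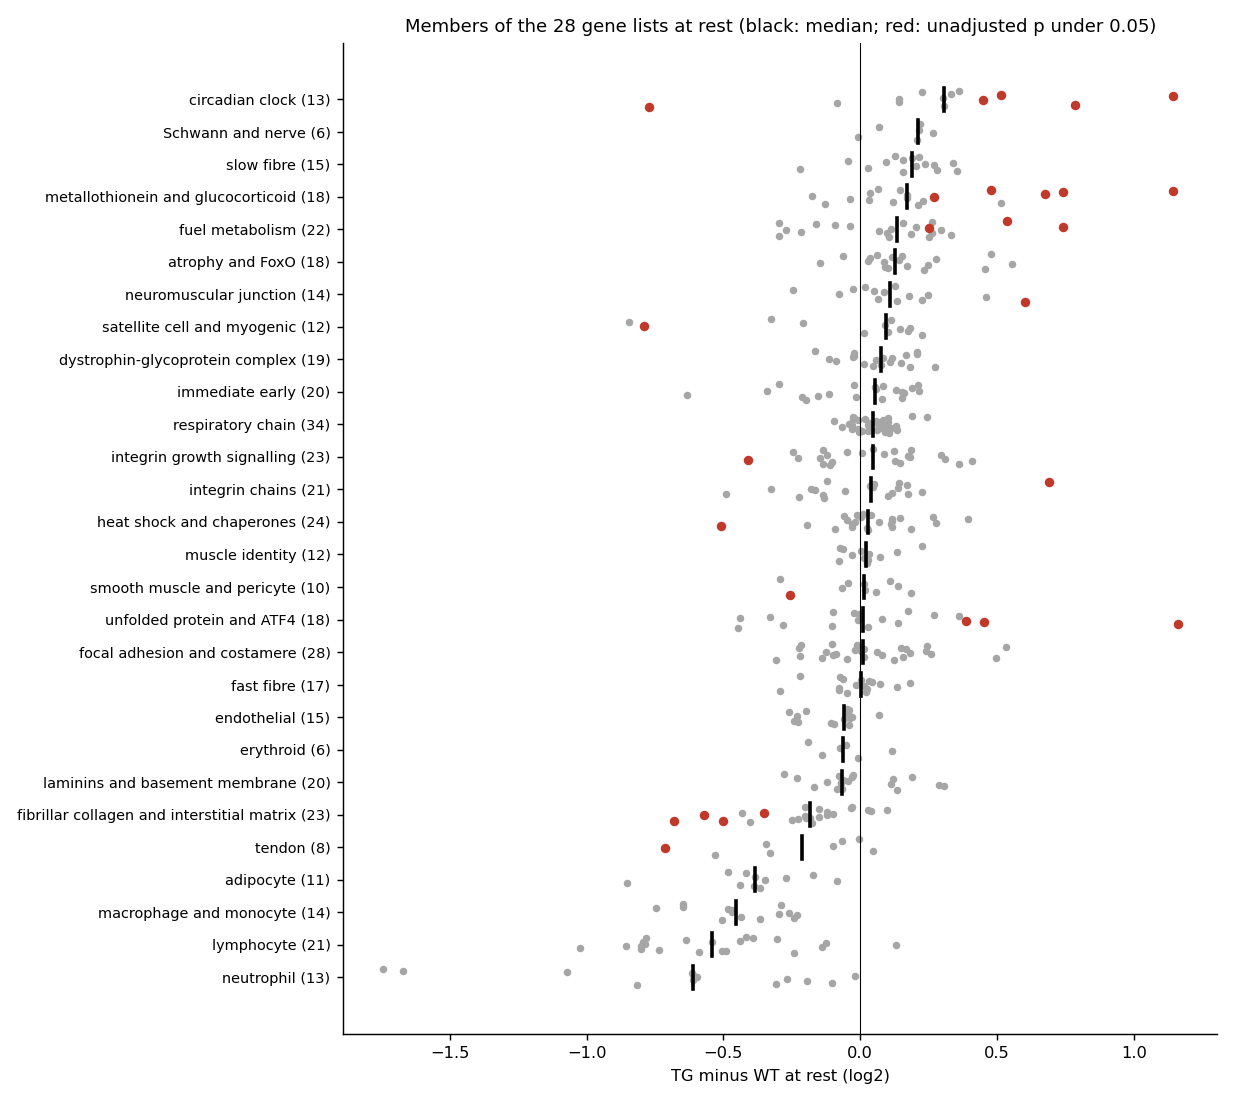
TG minus WT difference at rest (log2) of each measured member of the 28 gene lists, with the number of members in brackets, a black bar at the median and red points where the unadjusted p is under 0.05. Clock genes lie to the right (median 0.31), fibrillar collagen genes to the left (median -0.18) and the markers of neutrophils, lymphocytes, macrophages and adipocytes furthest left, to -0.61 for neutrophils.

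The clock list stood highest, with 11 of 13 members above 0 and a median of 0.31. An unadjusted p under 0.05 was reached by 5 members, 4 of them higher and 1 lower in TG muscle. The circadian clock is a loop in which the proteins of Arntl and Clock bind E-boxes and switch on the Per genes, Dbp and Ciart. The products of the Per genes and of Ciart then hold the activators back. Per1, a repressor of the loop that also responds to glucocorticoids, read 9.19, 9.47 and 10.26 in TG muscle, against 8.04, 8.17 and 9.27 in WT muscle. It differed by 1.14 (SE 0.24, unadjusted p = 8.4e-05, limma adjusted p = 0.0903), and its second detected probe by 1.04 (SE 0.23). The groups overlapped through WT array 11 at 9.27. Leaving out that array takes away the overlap by the choice of array, and Per1 was called there (limma adjusted p = 0.0153). It was not called in any other alternative setting. Arntl, the activator, read 6.67, 7.14 and 7.85 in TG muscle against 7.46, 7.95 and 8.34 in WT muscle, a difference of -0.77 (SE 0.20, limma adjusted p = 0.364). Arntl and Dbp lie on chromosome 7. Ciart, a repressor of the activators, differed by 0.78 (SE 0.28) and Per2 by 0.51 (SE 0.21), each with a limma adjusted p of 1.00. After the run the clock list had 3 of 13 members above 0 and a median of -0.12, with Per1 at 0.28 and Ciart at -0.023.

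The 250 bases before the start of Per1 and Ciart are shown with E-boxes in capitals, because this motif is the textbook site through which both genes are driven. Of the 13 clock genes measured 11 had a promoter in the RefSeq table, and 3 of these 11 held the motif, Ciart, Per1 and Tef, against 6.86% of 27025 genes with a promoter in the table. The windows are chr11:69098699-69098948 on the plus strand for Per1, the more upstream of its 2 annotated starts, and chr3:95882229-95882478 on the minus strand for Ciart (GRCm38.p6).
Per1: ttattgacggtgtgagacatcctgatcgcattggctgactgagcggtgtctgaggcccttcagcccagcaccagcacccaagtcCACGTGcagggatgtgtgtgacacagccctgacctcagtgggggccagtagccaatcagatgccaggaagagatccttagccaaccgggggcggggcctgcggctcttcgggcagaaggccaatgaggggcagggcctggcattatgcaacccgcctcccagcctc
Ciart: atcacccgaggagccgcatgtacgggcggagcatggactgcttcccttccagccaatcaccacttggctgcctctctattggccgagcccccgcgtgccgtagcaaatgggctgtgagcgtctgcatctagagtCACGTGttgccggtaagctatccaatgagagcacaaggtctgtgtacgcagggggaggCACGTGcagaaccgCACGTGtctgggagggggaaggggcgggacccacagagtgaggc
The Per1 window holds 1 motif and the Ciart window holds 3.

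Metallothionein and glucocorticoid-responsive genes were above 0 in 15 of 18, with a median of 0.17 and 5 members with an unadjusted p under 0.05, all higher in TG muscle. Besides Per1 they included Pdk4, the kinase that shuts pyruvate dehydrogenase, at 12.49, 12.69 and 13.26 in TG muscle against 11.53, 11.94 and 12.63 in WT muscle (difference 0.74, SE 0.23, limma adjusted p = 0.762). Sgk1, a kinase induced by glucocorticoids, differed by 0.48 (SE 0.16) and Klf9, a transcription factor they also induce, by 0.27 (SE 0.12). The list mean was highest on TG arrays 4, 5 and 7, at 9.98 to 10.20, and without the arrays high in lymphocyte markers its median was 0.011. After the run 9 of the 18 members were above 0 and the median was 0.0053, with Pdk4 at -0.17, Sgk1 at 0.18 and Klf9 at -0.021. Fuel metabolism genes were above 0 in 15 of 22, with a median of 0.13 (8 of 22 and -0.076 after the run). Besides Pdk4, the mitochondrial carrier Ucp3 differed by 0.53 (SE 0.23) and Mlycd, which breaks down malonyl-CoA, by 0.25 (SE 0.11). Atrophy and FoxO genes were above 0 in 16 of 18, with a median of 0.13 (5 of 18 and -0.030 after the run). At rest 0 of 18 had an unadjusted p under 0.05. Fbxo32, the ubiquitin ligase atrogin-1, differed by 0.55 (SE 0.32).

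Fibrillar collagen and interstitial matrix genes were lower in 20 of 23, with a median of -0.18. Col1a2, a chain of type I collagen, read 10.45, 10.98 and 11.40 in TG muscle against 11.31, 11.69 and 11.81 in WT muscle. It differed by -0.68 (SE 0.20, limma adjusted p = 0.567), and TG arrays 3, 5, 7, 11 and 4 lay below every WT array. Its partner chain Col1a1 differed by -0.50 (SE 0.20), elastin (Eln) by -0.57 (SE 0.18, limma adjusted p = 0.776) and Lox, the enzyme that cross-links both, by -0.35 (SE 0.17). After the run 15 of the 23 were above 0 and the list's median was 0.058, with Col1a2 at -0.061. Tendon genes were lower in 7 of 8, with a median of -0.21, and only Comp, already named on chromosome 8, had an unadjusted p under 0.05.

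**Figure D5:**
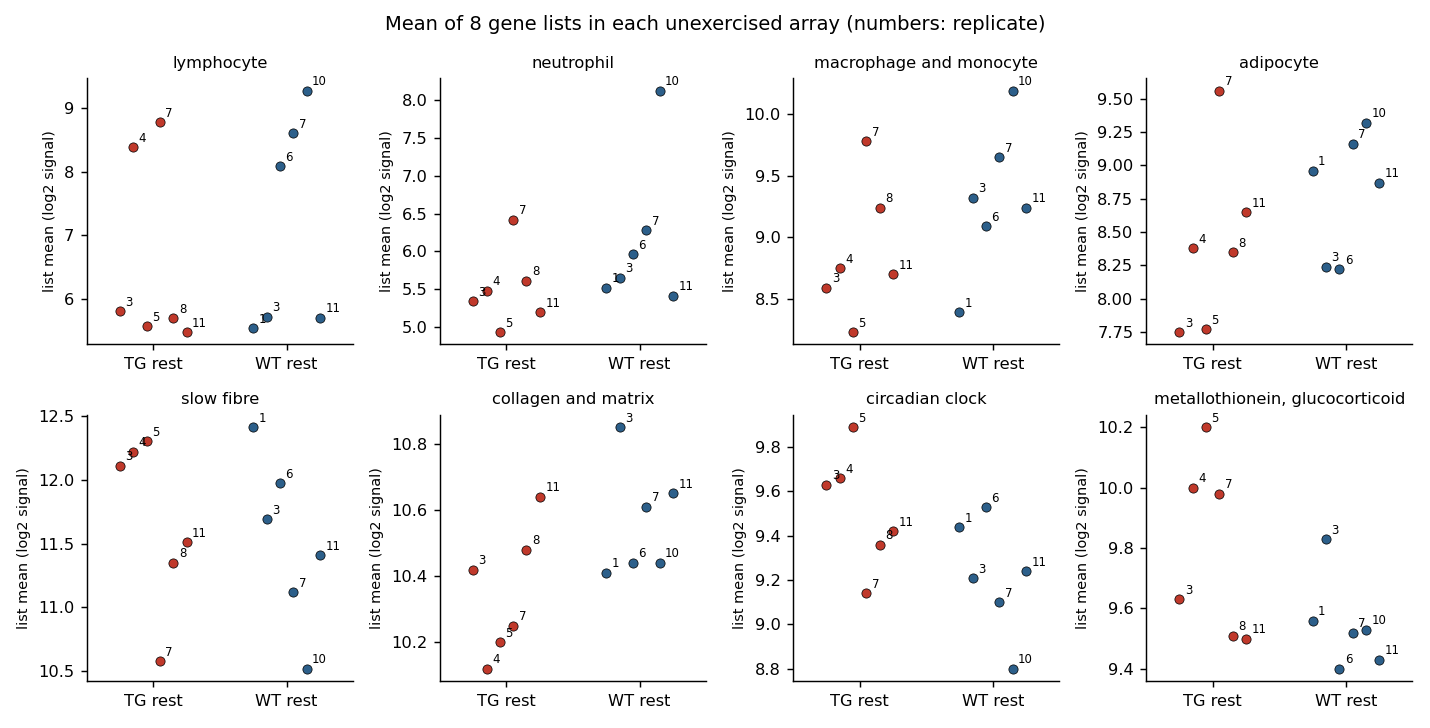
Mean log2 signal of 8 gene lists on each resting array, TG left and WT right, with numbers giving the replicate. Lymphocyte means form separate high and low ranges within each genotype, the neutrophil mean is highest on WT array 10 at 8.13, and clock means overlap between genotypes.

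Unfolded protein and ATF4 genes were above 0 in 9 of 18, with a median of 0.012 that turned to -0.062 under median scaling. Chac1, a glutathione-degrading enzyme induced by ATF4, read 11.16, 12.09 and 13.00 in TG muscle against 10.37, 10.84 and 11.60 in WT muscle (difference 1.16, SE 0.40, limma adjusted p = 1.00), and differed by -0.65 after the run. Herpud1, which helps clear misfolded proteins from the endoplasmic reticulum, differed by 0.39 (SE 0.11, limma adjusted p = 0.450) and Dnajb9 by 0.45 (SE 0.18). Of the heat shock list 15 of 24 were above 0, and Hsp90aa1 was the 1 member with an unadjusted p under 0.05, at -0.51 (SE 0.23). Immediate early genes were above 0 in 11 of 20, with Fos at -0.63 (SE 0.38, unadjusted p = 0.111). Respiratory chain genes were above 0 in 23 of 34, with a median of 0.048 that turned to -0.026 under median scaling and to -0.039 with the replicate block.

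Slow fibre genes were above 0 in 13 of 15, with a median of 0.19 at rest and -0.25 after the run. The resting median was -0.063 with the replicate block and -0.0056 without the arrays high in lymphocyte markers. Their list mean ranged over 10.58 to 12.30 in TG and 10.52 to 12.41 in WT muscle, so the spread within each genotype was far wider than the difference. The slow myosin light chains Myl2 and Myl3 differed by 0.27 (SE 0.29) and 0.24 (SE 0.27). Fast fibre genes had a median of 0.0036 and list means of 14.39 ± 0.069 in TG and 14.42 ± 0.072 in WT muscle.

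Markers of white blood cells and fat cells had medians below 0, with 0 members called or with an unadjusted p under 0.05, and those of lymphocytes and neutrophils turned with the replicate block. That block takes WT array 10 out of the comparison, because no other array carries its number. Among the resting arrays it had the highest neutrophil and lymphocyte means, 8.13 and 9.28. Neutrophil markers were lower in 13 of 13, with a median of -0.61 that turned to 0.18 with the replicate block, and list means of 4.93 to 6.42 in TG against 5.41 to 8.13 in WT muscle. The granule protein S100a9 read 4.78, 6.62 and 8.89 in TG muscle against 6.37, 8.09 and 11.60 in WT muscle (difference -1.74, SE 0.95). Lymphocyte markers were lower in 20 of 21, with a median of -0.54 that turned to 0.59 with the replicate block, and list means of 5.47 to 8.78 in TG against 5.53 to 9.28 in WT muscle. Macrophage and monocyte markers were lower in 14 of 14 (median -0.45, and -0.28 with the replicate block, list means 8.23 to 9.78 in TG against 8.39 to 10.19 in WT) and adipocyte markers in 11 of 11 (median -0.38, and -0.098 with the replicate block, list means 7.75 to 9.56 in TG against 8.22 to 9.32 in WT). Endothelial markers were lower in 14 of 15, with a median of -0.059, and erythroid markers in 5 of 6, with a median of -0.064 (0.10 with the replicate block). In whole muscle, fewer cells of a type and less RNA per cell cannot be told apart. After the run the medians were 0.63 for neutrophils, 0.79 for lymphocytes, 0.19 for macrophages and 0.45 for adipocytes, all on the other side of 0. The resting arrays high in lymphocyte markers were 2 in TG and 3 in WT muscle, and without the high arrays the lymphocyte median was 0.065. In that setting the neutrophil median was -0.16, the macrophage median -0.29 and the adipocyte median -0.48. The clock median there was 0.34 and the collagen median -0.15.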

How the data were processed

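RNA of 24 mouse muscles was measured on Illumina bead arrays with 45281 probes. The deposited table gives, per the file headers, an intensity and a detection p-value per probe and array, in a table that its submitters call non-normalized. The authors also deposited log2 values in the series matrix; the submitters' processing notes list limma 3.20.8 and R 3.1.1 without their role. These values differed from those computed here by at most 0.0269. The sources used here name no genome build.

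Here neqc (limma 3.58.1, R 4.3.3) corrected background with the detection p-values, normalized by quantile and added an offset of 16. Probes with a detection p under 0.05 on at least 6 of 24 arrays were kept (21788). Symbols came from the platform annotation, in which 34885 probes have 1 symbol, 18 several and 10378 none; probes with several or none were tested by ID. The probe with the highest mean stood for each symbol, and 11557 features were placed on a chromosome by Entrez ID (RefSeq genes, GRCm38.p6, order only). A model with 4 group means over all 24 arrays (lmFit, eBayes, 20 residual degrees of freedom) gave two-sided p-values with Benjamini-Hochberg adjustment over 14984 features, called at an adjusted p under 0.05. The fit was also run on simulated arrays with known differences, drawn independently for each feature and array. They held no replicate pairs and no arrays high in lymphocyte markers, so that run does not cover either. The labels' protocols give 6 females per group but do not tie each array to a mouse, so p-values measure the spread between arrays. The number of arrays limits the precision.

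TG and WT share the replicate numbers 3, 7 and 11 at rest. The deviations of these pairs correlated at 0.347, 0.687 and 0.412, while 33 unequal pairs had a median of -0.108 (-0.663 to 0.820). These values lie inside the range of the unequal pairs, and the labels do not say what a number marks. Whether the numbers pair the arrays was therefore not settled, and blocked values are printed where a call changed. The fixed block also leaves fewer residual degrees of freedom than the main fit, so it has less power to call features.

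Named are the called features with a symbol (up to 15 in each direction), Itga7 and Itgb1, up to 4 members of each list by smallest p, and up to 5 probes without a symbol; neighbours on chromosomes 7, 8 and 14 were chosen after their values were seen. The comparison and the 28 lists (562 genes) were chosen with earlier results of these data known. Alternatives were 12 other settings, 12 arrays left out singly and 1 setting added after seeing the data. No slide or scan batch was analysed here.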

Additional observations from a re-analysis of the deposited data

Results flagged for a closer look

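In 13 of 230 groups looked at (115 features and list means, each in TG and in WT muscle at rest), 1 array stood apart from the other 5 by more than Dixon's 95% critical share of the group's whole range. Chance alone does this in about 1 in 20 groups. Transgenic array 8 accounted for 4 of them, all among called genes of chromosome 7. It was the highest TG array for Hps5 (gap 0.817 of the range, 6.34 against 4.90 for the next), Ctu1 (0.801, 6.02 against 4.78) and Kcna7 (0.746, 7.80 against 6.37), and the lowest for Wdr93 (0.685, 5.14 against 5.53). Without it all 11 features were still called. Transgenic array 7 was lowest for Sdc4, a syndecan of satellite cells (0.7, 4.87 against 8.03), and for Ache (0.63, 5.86 against 6.53). In WT muscle, array 10 was highest for the neutrophil gene Retnlg (0.913, 8.74 against 5.56) and for the neutrophil list mean (0.681, 8.13 against 6.28). Wild-type array 6 was highest for Herpud1 (0.804, 13.07 against 12.68), array 1 for Mtor (0.707, 8.88 against 8.28), array 11 for Cox4i1 (0.683, 14.72 against 14.55) and array 3 for the metallothionein and glucocorticoid list mean (0.634, 9.83 against 9.56). Wild-type array 7 was lowest for the cathepsin gene Ctsl (0.666, 4.89 against 5.48).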

How the results depend on the processing

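Over 25 alternative settings the 11 called features kept their direction and call in 199 of 271 values, lost the call in 71 and turned in 1: Hps5 gave 0.89 when probes had to be detected on all 24 arrays, where its other probe carries the symbol. The count of calls at rest was 4 with detection on all 24 arrays, 17 with every probe as a feature, 7 with the resting arrays alone, 2 with the replicate block, 21 with lymphocyte and slow fibre means as covariates, 3 without the arrays high in lymphocyte markers, and 6 to 11 with 1 array left out. After the run it was 8, 2, 29 and 2 with detection on all 24 arrays, the block, the covariates and without those arrays, and 11 to 16 with 1 array left out. Features with an unadjusted p under 0.05 numbered 107 on chromosome 7 without the filter and 62 on chromosome 8 with the covariates. With 1 array left out they numbered 53 to 75 and 26 to 39, and 0 features passed for genotype by exercise. Of 700 list medians 4 moved by more than the spread between arrays: fast fibre to -0.077 and fuel metabolism to 0.044 under median scaling, respiratory chain to -0.039 with the replicate block, and fuel metabolism to 0.041 without the arrays high in lymphocyte markers. Median scaling put the median of all features at -0.0855. Sign turns among uncalled features were Itgb1 (-0.077 under median scaling, -0.00095 with the block, -0.022 with covariates, and -0.038 to 0.16 with 1 array left out), Mylpf (-0.00082 under median scaling), and, with the block, Itga7 (-0.0089), Sgca (-0.011), Fcer2a (0.41), Rac2 (0.29), Slc4a1 (0.095) and Hba-a1 (0.027). Slc4a1 was 0.033 without the arrays high in lymphocyte markers. Of the uncalled list members named by smallest p, Myod1 passed with covariates (adjusted p = 0.0416) and Per1 without WT array 11. A probe of Mef2c passed with every probe as a feature. The fixed replicate block changed no other call at rest among the features named. The causes of these changes, fewer probes or arrays in a fit among them, were not tested. Probes near background, such as Ctu1 and Hps5 in TG muscle, have folds limited by background signal.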
